A study of Mus musculus with 22 samples.

Results

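The genes described here are the Hox cluster genes of the mouse, chosen by name as the protein-coding genes called Hoxa, Hoxb, Hoxc or Hoxd with a number. The rule found 39 of the 52459 genes in the bulk table: 11 in the Hoxa cluster on chromosome 6, 10 in Hoxb on chromosome 11, 9 in Hoxc on chromosome 15 and 9 in Hoxd on chromosome 2. The study removed Mettl3, which encodes the enzyme that writes N6-methyladenosine on RNA, from blood cells of the mouse embryo, and read out RNA, the histone mark H3K4me3 and double-stranded RNA in fetal liver at E14.5. KO embryos were Vav-Cre Mettl3fl/fl, and WT embryos were Mettl3fl/fl without Vav-Cre, so the floxed alleles were carried by both groups. The Vav promoter drives Cre in blood cells, so other cells of a KO liver may keep Mettl3. Sorted Lin-Sca-1+c-Kit+ (LSK) cells, a fraction rich in stem and early progenitor cells, were used for bulk RNA-seq (3 KO and 3 WT libraries), for single-cell RNA-seq (2 and 2) and for H3K4me3 by CUT&RUN (2 and 2). Unsorted fetal liver was the source of RNA bound by the SCICONS J2 antibody against double-stranded RNA (J2; 2 KO and 2 WT) and of the RNA before binding (INPUT; 2 and 2).

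Hox genes encode homeodomain transcription factors and lie in clusters in an order that mirrors where along the body axis they act. In blood, genes of the middle of Hoxa and of Hoxb are active in stem and early progenitor cells and are shut down as cells mature; HOXA9 works with the cofactors MEIS1 and PBX. KMT2A, which methylates H3K4, keeps Hox genes active, and Polycomb complexes, with EZH2 as a methyltransferase, keep them silent.

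Library totals were 20088100 to 40641081 counts in bulk, 11508749 to 14451593 in H3K4me3, 3100910 to 5251496 in J2 and INPUT, and 7264127 to 11638238 summed over single cells. Bulk Mettl3 was at 4.13, 6.31 and 5.52 CPM (counts scaled to library size) in KO and 43.0, 43.0 and 33.2 CPM in WT. Summed single-cell Mettl3 counts went the other way, with 64.3 and 52.2 CPM in KO and 36.3 and 33.3 CPM in WT; which exons were deleted is not stated in the labels, so tags outside them check nothing. In the same libraries granulocyte markers summed to 1585 and 937 CPM in KO and 792 and 697 CPM in WT, and lymphoid markers to 123 and 170 CPM in KO and 364 and 320 CPM in WT, the directions also seen in bulk. In whole liver, where other cells keep the gene, INPUT held 6.70 and 26.9 CPM in KO and 29.4 and 24.9 CPM in WT. Both single-cell KO libraries held Xist counts and no Y-linked counts and both WT libraries the reverse, which means that genotype there cannot be told apart from sex. In bulk, KO 1 had 0 counts of Y-linked genes, WT 3 had 3 Xist counts, and the other 4 libraries held both. Y-linked counts were 0, 1155 and 1156 in KO and 4944, 3531 and 3655 in WT, every KO library below every WT library. Sex was thus not balanced between the genotypes in bulk either, and its part in the bulk differences was not tested. All 8 stem cell markers passed the filter in bulk, but so did 7 of 8 markers of hepatocytes, which the sort should remove. The hepatocyte markers summed to 54.2, 14.96 and 23.7 CPM in KO and 161, 32.0 and 21.1 CPM in WT, so WT 1 stood apart; their median log2 fold change was -1.07 and 0 of 7 were called.

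Upstream DNA of 4 members is shown because their windows gave the calls in H3K4me3 (Hoxa5, Hoxb4, Hoxd1) or because the gene is the best known of the cluster in blood (Hoxa9). Each line is the 250 bases before the start that RefSeq gives (GRCm38.p6), 5' to 3' on the strand of the gene, with CG dinucleotides in capitals, the base pairs that the DNA-binding CXXC domain of KMT2A recognises when unmethylated.
Hoxa5, chr6:52204588-52204837, minus strand: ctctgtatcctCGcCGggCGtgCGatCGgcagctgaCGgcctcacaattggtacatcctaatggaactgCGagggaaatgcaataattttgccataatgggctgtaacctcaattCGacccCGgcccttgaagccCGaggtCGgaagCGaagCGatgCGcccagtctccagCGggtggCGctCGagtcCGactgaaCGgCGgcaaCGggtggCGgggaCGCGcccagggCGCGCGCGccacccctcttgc
Hoxa9, chr6:52227371-52227620, minus strand: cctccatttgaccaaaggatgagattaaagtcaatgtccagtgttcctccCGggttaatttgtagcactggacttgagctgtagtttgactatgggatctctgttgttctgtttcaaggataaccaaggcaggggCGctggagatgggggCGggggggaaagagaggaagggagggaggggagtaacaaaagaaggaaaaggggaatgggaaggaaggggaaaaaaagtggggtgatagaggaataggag
Hoxb4, chr11:96318017-96318266, plus strand: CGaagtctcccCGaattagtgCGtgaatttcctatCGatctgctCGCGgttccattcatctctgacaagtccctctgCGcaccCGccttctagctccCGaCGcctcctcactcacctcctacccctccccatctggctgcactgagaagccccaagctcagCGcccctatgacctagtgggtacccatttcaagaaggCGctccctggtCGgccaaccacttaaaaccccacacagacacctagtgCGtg
Hoxd1, chr2:74762730-74762979, plus strand: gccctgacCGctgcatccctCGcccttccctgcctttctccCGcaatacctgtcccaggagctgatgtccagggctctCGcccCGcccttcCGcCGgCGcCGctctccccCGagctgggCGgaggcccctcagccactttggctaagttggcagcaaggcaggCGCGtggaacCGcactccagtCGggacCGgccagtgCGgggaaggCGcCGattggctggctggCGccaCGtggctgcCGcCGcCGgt
The Hoxa5 stretch holds 28 CG dinucleotides, that of Hoxd1 24, that of Hoxb4 14 and that of Hoxa9 3. RefSeq promoters were found for 22 of the 39 members (24 entries); these held 2 to 35 CG, with a median of 12.5, against a median of 6 over 32851 promoters of the same length, of which 92.1% held at least 1. The motif searched was CG, which reads the same on both strands.

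Bulk RNA of LSK cells addressed which Hox transcripts change when Mettl3 is lost. Genes of Hoxa and Hoxb were mostly lower in KO: Hoxa3, Hoxa5, Hoxa6, Hoxa9, Hoxa10, Hoxb3 and Hoxb5 fell, and Hoxa4 alone of the tested members rose. Of the 39 members, 12 passed the filter on low counts and 27 did not; 8 of the 12 (66.7%) were called at an adjusted p under 0.05 in edgeR's quasi-likelihood test, against 44.2% of the 14405 genes tested. By direction, 7 members (58.3%) were lower against 22.6% of all genes, and 1 (8.33%) higher against 21.6%. The share rested on single libraries: it was 23.1% against 34.2% of all genes without WT 2, 28.6% against 31.4% without KO 3 and 35.7% against 40.7% without KO 1, so that members were then called no more often than other genes, and it was 50.0% to 76.9% against 32.9% to 45.3% without KO 2, WT 1 or WT 3. The median log2 fold change, KO over WT, was -0.80 for the 12 and -0.020 for all genes. Hoxb5 passed the filter through the WT libraries only, with 3 WT and 0 KO libraries above its cutoff, so a member like it had to differ to be tested. Hoxb2 was above the cutoff in 3 WT and 2 KO libraries. Since LSK cells were measured in bulk, fewer cells of a type and less RNA per cell cannot be told apart.

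Hoxa3, known for its part in forming thymus and parathyroid, had 3.10, 2.31 and 3.81 CPM in KO and 6.66, 8.16 and 7.42 CPM in WT. Every KO library was below every WT library. The log2 fold change was -1.26 (SE 0.19, adjusted p = 0.000816, edgeR). Hoxa5, which patterns the lung and the cervical spine, had 4.94, 5.04 and 4.74 CPM in KO and 11.6, 9.46 and 10.4 CPM in WT. The 3 KO libraries lay within a narrow band below all 3 WT libraries. Its log2 fold change was -1.10 (SE 0.13, adjusted p = 0.000201, edgeR), the smallest adjusted p of the 12. Hoxa9, whose protein sustains stem cell self-renewal, had 37.8, 44.2 and 43.3 CPM in KO and 52.1, 55.3 and 66.8 CPM in WT. The groups did not overlap, and the change was smaller, at -0.47 (SE 0.11, adjusted p = 0.00652, edgeR). These were the 3 members called in each of the 6 fits that left out 1 library.

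Hoxa10, a homeobox gene of the same posterior group of the cluster as Hoxa9, had 3.76, 6.04 and 5.87 CPM in KO and 6.29, 10.2 and 10.8 CPM in WT. WT 1 lay just above the highest KO library. Its log2 fold change was -0.80 (SE 0.24, adjusted p = 0.0240, edgeR), and the call was lost in 4 of 6 fits that left out 1 library (KO 1, KO 3, WT 2 or WT 3). Hoxa6, next to Hoxa5, had 1.13, 1.34 and 0.718 CPM in KO and 1.98, 2.21 and 2.08 CPM in WT. KO 3 was the lowest, and the groups did not overlap. The log2 fold change was -0.98 (SE 0.27, adjusted p = 0.0162, edgeR). Hoxb3 had 1.11, 1.60 and 1.03 CPM in KO and 2.17, 2.29 and 2.18 CPM in WT, again with every KO library lower (log2 fold change -0.84, SE 0.24, adjusted p = 0.0200, edgeR). The calls of Hoxa6 and Hoxb3 were lost in 3 of the 6 fits, those without KO 1, KO 3 or WT 2. Hoxb5, which in mouse marrow marks long-term stem cells, had 7, 4 and 6 counts in KO and 12, 34 and 8 counts in WT. WT 2 stood above the other 2 WT libraries. The log2 fold change was -1.73 (SE 0.48, adjusted p = 0.0159, edgeR), and it was -1.12 (adjusted p = 0.0848) without WT 2; the call was also lost without KO 1, KO 2 or KO 3.

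Hoxa4, a neighbour of Hoxa5 in the cluster, rose. It had 1.81, 2.80 and 2.34 CPM in KO and 1.57, 1.24 and 0.940 CPM in WT. All 3 KO libraries were above all 3 WT libraries. The log2 fold change was 0.86 (SE 0.27, adjusted p = 0.0279, edgeR), and the call was lost without KO 2, KO 3, WT 2 or WT 3 (adjusted p 0.0565 to 0.107). In RefSeq the span of Hoxa3 contains the whole of Hoxa4, Hoxa5 and Hoxa6, and that of Hoxb3 contains Hoxb4. Whether reads were assigned by strand or shared among overlapping genes is not stated in the sources used here, so counts of these genes are uncertain to that extent.

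4 tested members were not called. Hoxa7 had 29.8, 38.0 and 34.1 CPM in KO and 32.8, 40.2 and 49.2 CPM in WT, with overlapping groups (log2 fold change -0.26, SE 0.15, adjusted p = 0.180, edgeR); without WT 1 it was -0.39 (adjusted p = 0.0250). Hoxb4, a gene that expands blood stem cells when overexpressed, had 4.21, 4.44 and 3.87 CPM in KO and 3.68, 3.56 and 3.91 CPM in WT. KO 3 fell inside the WT range, and the log2 fold change was 0.17 (SE 0.15, adjusted p = 0.379, edgeR). Hoxa2, which patterns the second branchial arch, had 14, 15 and 15 counts in KO and 27, 20 and 21 in WT (log2 fold change -0.80, SE 0.36, adjusted p = 0.101, edgeR). Hoxb2 had 12, 18 and 17 counts in KO and 26, 33 and 14 in WT (log2 fold change -0.71, SE 0.35, adjusted p = 0.131, edgeR).

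**Figure D1:**
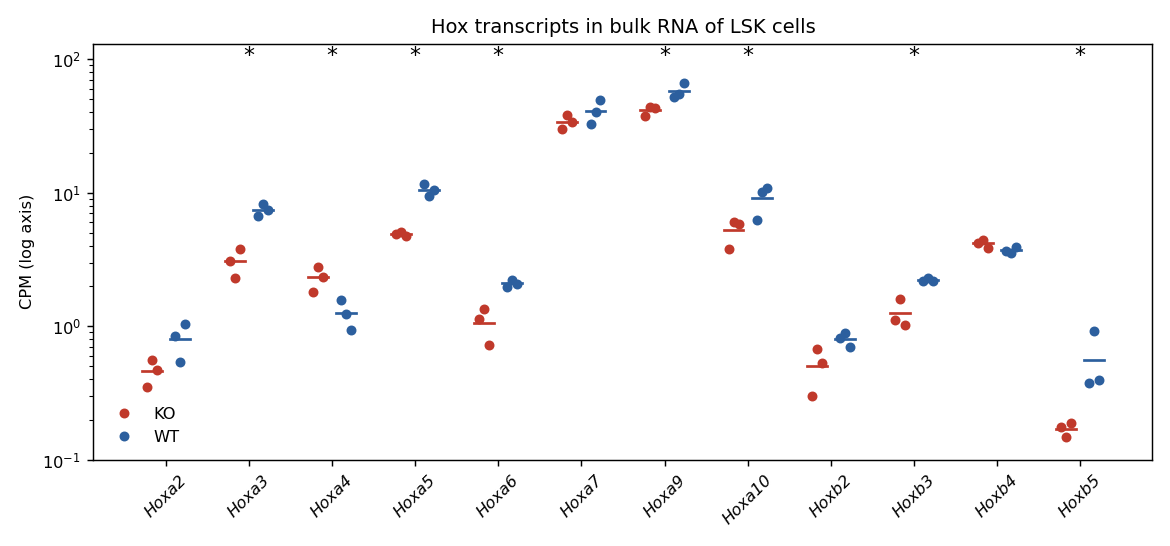
CPM (log axis) of the 12 tested Hox genes in bulk RNA of LSK cells, 1 point per library, KO at the left and WT at the right of each gene, lines at the group means and a star where the adjusted p is under 0.05. Hoxa4 is the one starred gene with its KO points on top, from 1.81 to 2.80 CPM against 0.940 to 1.57 CPM in WT.

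Among the 27 members below the filter, 15 had no count in any library, 8 had 1 to 10 counts in all and 4 had more, Hoxb6, Hoxb8 and Hoxb9 among them. Hoxb8, whose enforced expression holds myeloid progenitors immature, had 1, 1 and 1 counts in KO and 8, 12 and 13 in WT. Without a filter 9 of 24 members (37.5%) were called, 8 of them lower, against 24.9% of all genes in that fit. Hoxb9 had 0, 5 and 1 counts in KO and 6, 7 and 6 in WT, and Hoxb6 had 1, 2 and 2 counts in KO and 6, 4 and 2 in WT. Over the 6 libraries, the 9 Hoxc genes together held 8 counts in KO and 8 in WT, and the 9 Hoxd genes 0 in KO and 1 in WT. Summed over all members, Hox transcripts made up 88.9, 108 and 102 CPM in KO and 122, 136 and 157 CPM in WT. 46 other genes lie between the outermost Hox starts, 20 of them in Hoxa, 9 in Hoxb, 7 in Hoxc and 10 in Hoxd. Only Gm11539 (log2 fold change 0.32, SE 0.31, adjusted p = 0.426, edgeR) and Hoxb3os (-0.57, SE 0.34, adjusted p = 0.203) were tested, and neither was called.

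Marker levels differed between the same libraries. The 8 stem cell markers summed to 308 to 356 CPM in KO and 493 to 723 CPM in WT, with 7 of 8 lower. The 5 granulocyte markers summed to 3735 to 3799 CPM in KO and 1520 to 1671 CPM in WT, with 4 higher. The 10 stromal markers, of cells that also express Hox genes, summed to 33.8 to 37.0 CPM in KO and 63.0 to 74.6 CPM in WT, with all 6 tested lower, and 0 to 2 of the 10 at 0 in a library. Endothelial markers summed to 176 to 193 CPM in KO and 217 to 263 CPM in WT (5 of 8 tested lower, 0 or 1 of 10 at 0). Lymphoid markers summed to 566 to 587 CPM in KO and 1103 to 1272 CPM in WT (6 of 7 tested lower). Erythroid markers summed to 294 to 361 CPM in KO and 480 to 651 CPM in WT (4 of 7 lower). Over all genes 22.6% were called lower and 21.6% higher. The part of these differences in the Hox changes was not tested.

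Counting both directions, the partners and regulators of Hox genes were called at shares near or below the 44.2% of all genes. Of 7 tested cofactors 3 (42.9%) were lower and none higher, against 22.6% lower and 21.6% higher over all genes. Among the lower cofactors were Pbx2 (log2 fold change -0.39, SE 0.07, adjusted p = 0.00208, edgeR) and Meis1 (-0.25, SE 0.08, adjusted p = 0.0392). Of 15 activators tested, 2 were higher and 3 lower (33.3% called). Kmt2a had 133, 107 and 112 CPM in KO and 230, 183 and 154 CPM in WT, so every KO library was below every WT library (log2 fold change -0.69, SE 0.14, adjusted p = 0.00391, edgeR). Mllt3 (-0.39), a subunit of elongation complexes, a fusion partner of Kmt2a in leukemia and also 1 of the stem cell markers, and Psip1, which tethers KMT2A to chromatin (-0.27), were also lower. Dpy30 (0.50) and Wdr5 (0.18), core subunits of the H3K4 methyltransferase complexes, were higher. Of 29 Polycomb genes, 7 were higher and 6 lower (44.8% called), with a median of 0.047, so neither list stood apart from all genes in its count. Ezh2 fell (-0.28, SE 0.06, adjusted p = 0.00664, edgeR); Kdm2b and Pcgf5 rose by 0.34 and 0.29, while Kdm6b, which removes the Polycomb mark, fell by 0.54, Cbx6 by 0.47 and Phc1 by 0.44. Of 13 genes listed as targets of HOXA9 and MEIS1, 6 (46.2%) were lower, against 22.6% of all genes, and 1 was higher (53.8% called in all, against 44.2%), with a median of -0.36: Igf1 (-2.20), Id2 (-1.55), Flt3 (-1.03), Bcl2 (-0.67), Erg (-0.43) and Mef2c (-0.36) were lower. Flt3 is also in the lymphoid marker list, of which 6 of 7 tested were lower.

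H3K4me3 marks active and poised promoters and was counted in a 3 kb window at each listed transcript start, so levels of different windows can be compared. For each gene the window with the highest mean count stood for it, and it was called marked when its log2 CPM averaged 4 or more (16 CPM). The mark was found in a block of Hoxa, at 2 genes of Hoxb and at 1 of Hoxc, and at no gene of Hoxd. In Hoxa, 8 of 11 windows were marked, with a run from Hoxa4 to Hoxa10 among them. Hoxb4 and Hoxb5 were marked in Hoxb, and Hoxc6 in Hoxc at 4.01, just over the limit; Hoxa13, at 3.87, and Hoxb7, at 3.80, were the nearest below it. Hoxc6 had 8 bulk counts over all 6 libraries. The windows used for Hoxc6 and Hoxa10 lie at starts of transcripts not listed as protein-coding. At its protein-coding start Hoxc6 held 3.27 and 5.39 CPM in KO and 6.50 and 4.81 CPM in WT, under the limit. For Hoxa10, a protein-coding start held 21.1 and 17.7 CPM in KO and 24.2 and 15.2 CPM in WT. Another protein-coding start of Hoxa10 held 9.48 and 9.53 CPM in KO and 6.77 and 6.73 CPM in WT. The 9 Hoxd windows lay between 2.42 and 3.49; the strongest windows of Hoxd3 and Hoxd4 start 2 bases apart and hold the same counts.

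The highest mean log2 CPM were those of Hoxa7 (5.94), Hoxa9 (5.75), Hoxa3 (5.68) and Hoxb4 (5.10). Hoxa7 had 77.6 and 59.1 CPM in KO and 69.4 and 39.6 CPM in WT. Hoxa9 had 68.9 and 52.8 CPM in KO and 60.1 and 32.2 CPM in WT. Hoxa3, at a start that lies between those of Hoxa6 and Hoxa7, had 63.1 and 52.7 CPM in KO and 55.7 and 32.7 CPM in WT. In all 3 the KO range spanned the value of WT 1, and WT 2 was lowest, as it was at all 11 marked Hox windows. None of the 3 was called: the log2 fold changes were 0.33 (SE 0.22, adjusted p = 0.287, edgeR) for Hoxa7, 0.40 (SE 0.21, adjusted p = 0.193) for Hoxa9 and 0.39 (SE 0.21, adjusted p = 0.195) for Hoxa3.

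**Figure D2:**
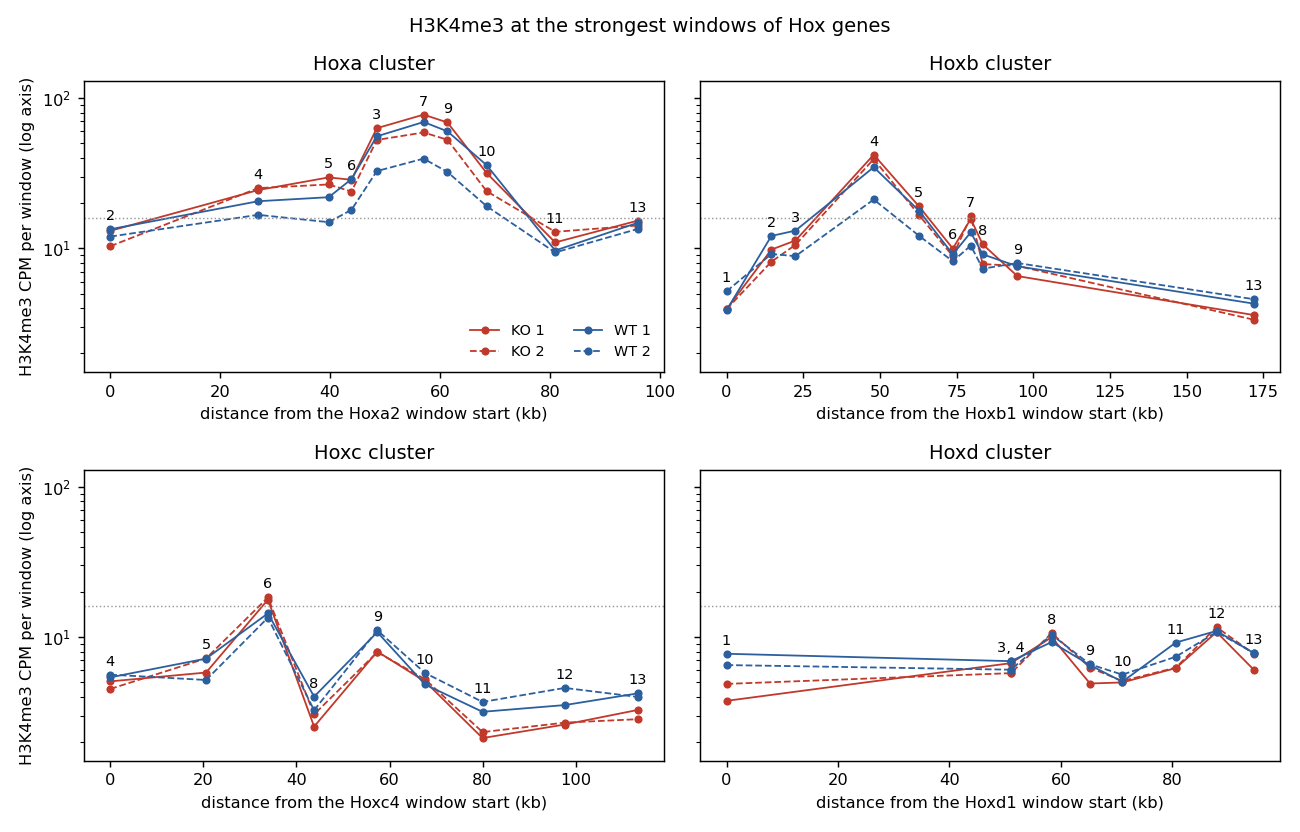
H3K4me3 CPM (log axis) in the strongest windows of Hox genes, by distance in kb from the window of the lowest-numbered gene drawn in its cluster; numbers name the genes, lines join the windows of 1 library, and the dotted line is 16 CPM. Hoxa3, Hoxa7 and Hoxa9 form the peak of Hoxa and Hoxb4 that of Hoxb, and WT 2 runs lowest there.

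All 39 windows passed the filter and 3 were called, which is 7.69% against 7.88% of the 51039 windows tested (3.22% higher and 4.66% lower), so the share of Hox windows called was near that of all windows. Hoxa5 had 29.7 and 26.6 CPM in KO and 21.9 and 14.9 CPM in WT. Both KO libraries were above both WT libraries, and edgeR put the log2 fold change at 0.61 (SE 0.17, adjusted p = 0.0115). Hoxb4 had 42.0 and 39.3 CPM in KO and 34.7 and 21.1 CPM in WT, likewise without overlap (log2 fold change of 0.54, SE 0.18, adjusted p = 0.0424, edgeR). Hoxd1, an unmarked window, had 3.76 and 4.88 CPM in KO and 7.74 and 6.51 CPM in WT (log2 fold change -0.72, SE 0.21, adjusted p = 0.0208, edgeR), and no bulk count in any library. Among the other marked windows, Hoxa4 (0.41), Hoxc6 (0.37), Hoxb5 (0.25), Hoxa6 (0.16) and Hoxa10 (0.017) had adjusted p of 0.0964 to 0.945.

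The 11 marked Hox windows all had positive log2 fold changes, with a median of 0.37, but so had 95.2% of all 15960 marked windows, whose median was 0.31, while the median over all 51039 windows was -0.15. When the marked windows were fitted alone, their median was 0.0055, 4.13% of them were called (2.1% higher and 2.03% lower), and 0 of the 11 Hox windows were called. Then Hoxa5 stood at 0.31 (SE 0.14, adjusted p = 0.231, edgeR), Hoxb4 at 0.25 (SE 0.13, adjusted p = 0.303), and Hoxa6, Hoxa10 and Hoxb5 were among those that turned negative (-0.14, -0.27 and -0.046). Fits of all windows that left out 1 library had 1 library in a group, so calls are not counted for them. Over these 4 fits the log2 fold change ranged from 0.36 to 0.93 for Hoxa5 and from 0.23 to 0.96 for Hoxb4. For Hoxd1 it ranged from -0.85 to -0.57. The size of each change thus depended on the library left out.

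At Hoxa5 the values of RNA and mark had opposite signs. Its RNA was lower in KO by 1.10 on the log2 scale, while its window was higher by 0.61. Among marked windows alone the window was higher by 0.31 and was not called. At Hoxa4 both values were positive (0.86 for RNA and 0.41 for the mark, the second not called), and at Hoxb4 the mark was called and the RNA was not. Of the 7 members with lower RNA, Hoxa3, Hoxa5 and Hoxa9 had windows with positive values, Hoxa6, Hoxa10 and Hoxb5 positive values that turned negative among marked windows alone, and Hoxb3 a value of -0.017. The difference between the assays was not tested, since they came from different libraries.

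**Figure D3:**
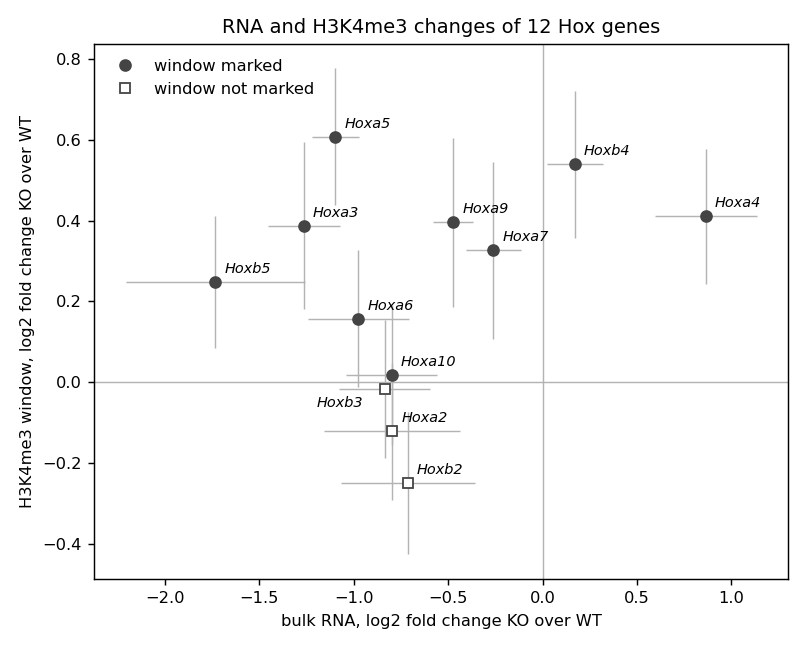
Log2 fold change, KO over WT, of bulk RNA (horizontal axis) and of the strongest H3K4me3 window (vertical axis) for the 12 Hox genes tested in bulk; bars are standard errors, filled circles are marked windows and open squares unmarked ones. Hoxa5 lies at the upper left, at -1.10 and 0.61, and Hoxa4 at the right, at 0.86 and 0.41.

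Single-cell RNA-seq placed Hox counts among the cells of the LSK sort. The table lists 11 of the 39 members among 14780 genes. In each library the gene with the fewest cells had 10, so a member listed at 0 in a library may have counts in up to 9 cells; Hoxa2, Hoxa3, Hoxa4, Hoxa6 and Hoxb2 were listed at 0 in at least 1 library, and no fold is given for them. Over 15678 cells, of 15707 deposited, 8 members passed the filter and 0 were called, against 0.00748% (1 gene) of the 13374 tested by edgeR; DESeq2 called 310 genes and none of the members. None of the 8 reached an unadjusted p under 0.05; the smallest was 0.0887, for Hoxa5. 8 cell barcodes were shared between libraries.

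Hoxa9 had 62.6 and 94.4 CPM in KO and 74.1 and 103 CPM in WT (log2 fold change -0.17, SE 0.27, adjusted p = 0.824, edgeR). Hoxa7 had 23.8 and 45.8 CPM in KO and 33.0 and 45.8 CPM in WT (-0.18, SE 0.36, adjusted p = 0.873). In both, the library of replicate 1 was the lower one of each genotype. Hoxa5 had 4.68 and 7.11 CPM in KO and 7.59 and 11.8 CPM in WT, with both KO libraries below both WT libraries (log2 fold change -0.72, SE 0.34, adjusted p = 0.412, edgeR). Hoxb4 had 4.68 and 4.22 CPM in KO and 3.36 and 3.71 CPM in WT, with KO above WT (0.33, SE 0.29, adjusted p = 0.663). None of these differences passed the test, and the bulk change of Hoxa9, -0.47, lay within 2 SE of its single-cell value. Hoxa10 had 3.08 and 5.38 CPM in KO and 3.94 and 5.56 CPM in WT (-0.16, SE 0.39, adjusted p = 0.896). Hoxc8 had 24 and 24 counts in KO and 22 and 11 in WT, each count in a cell of its own, while bulk RNA held 1 Hoxc8 count over 6 libraries.

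Cells were put in a group when they held counts of at least 2 markers of 1 list and of more markers of it than of any other list. The 6 members listed in every library summed to 161 and 277 CPM in KO and 264 and 343 CPM in WT in cells with stem cell markers. In cells with granulocyte markers the sums were 98.3 and 121 CPM in KO and 88.4 and 110 CPM in WT. In cells with erythroid markers they were 41.6 and 74.4 CPM in KO and 35.6 and 69.5 CPM in WT. Among the 5 groups plotted, the stem cell group was highest and the erythroid group lowest in 4 of 4 libraries. Cells with megakaryocyte markers, 19 and 21 in KO and 15 and 11 in WT, were too few and were left out of this order. Their sums were 29.1 and 113 CPM in KO and 0 and 193 CPM in WT, on 7 counts or fewer per library. In KO 1 and WT 1 these lay below the erythroid group. Lymphoid-marker cells held 127 and 186 CPM in KO and 157 and 202 CPM in WT, between these groups. Ungrouped cells held 123 and 186 CPM in KO and 146 and 188 CPM in WT.

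**Figure D4:**
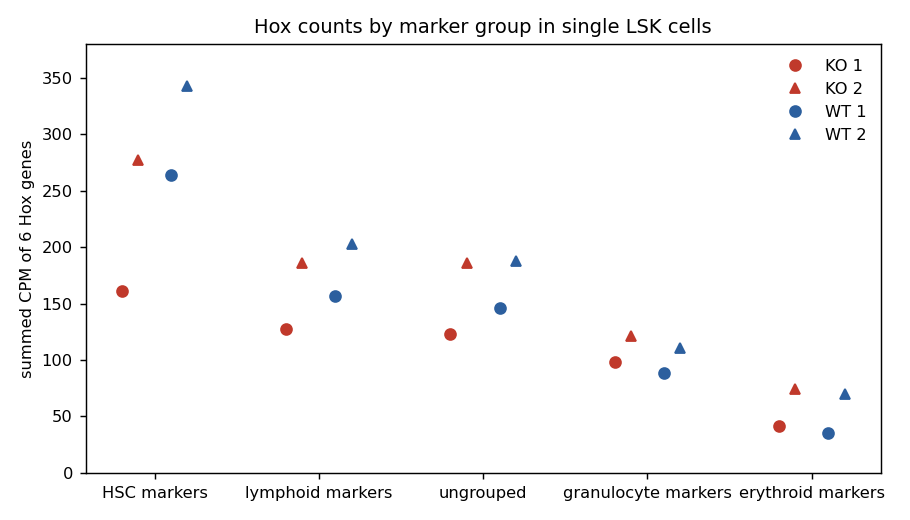
Summed CPM of the 6 Hox genes listed in every library, in cells grouped by markers; 1 point per library, KO at the left and WT at the right of each group, circles for replicate 1 and triangles for replicate 2. Values run from 161 to 343 CPM in the stem cell (HSC) group down to 35.6 to 74.4 CPM in the erythroid group.

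The stem cell group held 32 and 191 cells in KO and 77 and 167 cells in WT, and 11 Hox counts in KO 1, too few for a test. In the granulocyte, lymphoid, erythroid and ungrouped cells, 14 tests of members were made with edgeR and 0 were called, where 0.742%, 0.239%, 0.0679% and 0.188% of the genes tested in these groups were called. Within granulocyte-marker cells the log2 fold change was -0.056 (SE 0.20) for Hoxa9 and 0.26 (SE 0.27) for Hoxa7. Within ungrouped cells it was -0.11 (SE 0.19) for Hoxa9 and -0.21 (SE 0.31) for Hoxa7. The granulocyte group made up 39.6% and 25.1% of cells in KO and 17.2% and 13.4% in WT, and the lymphoid group 1.34% and 4.76% in KO and 9.63% and 8.71% in WT. The median count per cell ranged from 1736.5 to 3226 in the granulocyte group and from 2022.5 to 3602 in the erythroid group.

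In whole fetal liver, Hox counts were few. All members together held 92 and 61 counts in J2 of KO and 111 and 45 in J2 of WT. In INPUT they held 178 and 83 counts in KO and 83 and 6 in WT. Hoxa3, Hoxb3 and Hoxb4 were the only members that passed the filter, 3 of 39. Hoxb4 had 50 and 12 counts in J2 of KO and 31 and 22 in J2 of WT, and 65 and 24 in INPUT of KO and 44 and 0 in INPUT of WT. Hoxa3 had 5 and 19 counts in J2 of KO and 10 and 10 in J2 of WT, and 8 and 25 in INPUT of KO and 0 and 0 in INPUT of WT. Hoxb3 had 11 and 9 counts in J2 of KO and 19 and 6 in J2 of WT, and 16 and 4 in INPUT of KO and 17 and 0 in INPUT of WT. INPUT of WT 2 thus held none of the 3.

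With edgeR, 0 of the 3 were called between KO and WT in INPUT, where 1.18% of 14657 genes were called (0.614% higher and 0.566% lower). Likewise 0 were called between J2 and INPUT in KO (30.4% of all genes, 15.3% higher and 15.1% lower) or in WT (23.9%, 13.2% higher and 10.7% lower). For a difference of the J2 enrichment between KO and WT, 0% of all genes and 0 of the 3 were called, and DESeq2 called 0 of the members in each of these comparisons. At an unadjusted p under 0.05 stood Hoxa3 alone, in INPUT (adjusted p = 0.161, edgeR), in J2 against INPUT in WT (adjusted p = 0.0842) and in the difference of enrichments (adjusted p = 0.489). All 3 comparisons use the INPUT libraries of WT, where Hoxa3 had 0 counts. Stromal markers, of cells that also express Hox genes, summed to 1346 and 820 CPM in INPUT of KO and 1664 and 448 CPM in INPUT of WT, and their part in these counts was not tested.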

How the data were processed

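The authors deposited raw counts per gene for bulk, INPUT, J2 and single-cell RNA-seq, and per 3 kb transcript-start window for H3K4me3; the unit of every table used is a count. Per the submitters' processing notes, STAR 2.5.3a, Bowtie2 2.2.9, Picard 2.9.0, bedtools, Seurat 3.0 and edgeR were used; per those notes the build was GRCm38.p5. Strand use in counting is not given in the sources used here. Members, lists and tests were chosen with earlier results of these data known.

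Counts were tested with edgeR 4.0.16 (R 4.3.3; filterByExpr, TMM, quasi-likelihood test, Benjamini-Hochberg over all features, called at an adjusted p under 0.05); DESeq2 1.42.0 was an alternative. INPUT and J2 were fitted together with 4 group means. Counts were summed per sample over cells that had 500 counts or more and a mitochondrial share under 20%; doublets were not removed. CPM use TMM-scaled library sizes. Fits were tested on simulated data. The text names every member tested in bulk, called anywhere or marked, and per list up to 6 called genes with the smallest adjusted p, plus Meis1, Kmt2a and Ezh2; Hoxb6, Hoxb8, Hoxb9, Hoxc8, Hoxa13, Hoxb7, Hoxd3, Hoxd4, Gm11539 and Hoxb3os were added after their values were seen. Values of some genes are not reported here. The labels call the libraries biological replicates; whether embryos were pooled is not stated, and p-values measure the spread between these libraries. INPUT and J2 of 1 number came from 1 liver, per the labels' protocols; their deviations correlated at 0.012 in KO and 0.128 in WT, and blocking changed no Hox call there.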

Additional observations from a re-analysis of the deposited data

Results flagged for a closer look

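Hoxa3 and Hoxb6 lay higher in KO than in WT in INPUT of whole liver and lower in KO in sorted cells, and the difference between these was not tested. Both genes were picked because bulk and INPUT separated the genotypes in opposite directions. The share of all genes that do so is not given here. The J2 libraries of the same livers did not show it for Hoxa3, which averaged 2.09 CPM in KO and 2.37 CPM in WT there. Hoxb6 averaged 0.163 CPM in KO and 0.333 CPM in WT in J2, on 2 counts in KO and 3 in WT, too few to tell. INPUT of WT 2 held 6 Hox counts in all. Hoxa3 was at 1.98 to 7.65 CPM in INPUT of KO and 0 CPM in both INPUT libraries of WT, while in bulk LSK cells it was at 2.31 to 3.81 CPM in KO and 6.66 to 8.16 CPM in WT. Hoxb6, on 10 counts or fewer per library, was at 1.49 to 3.06 CPM in INPUT of KO and 0 CPM in INPUT of WT, and at 0.0252 to 0.0746 CPM in KO and 0.0990 to 0.189 CPM in WT in bulk LSK cells.

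Hoxb4 lay higher in KO in 2 marker groups of single cells and lower in KO in 1, on few counts, and the difference between the groups was not tested. In granulocyte-marker cells it was at 4.04 to 5.13 CPM in KO (16 to 22 counts) and 1.95 to 2.71 CPM in WT (3 to 4 counts), a difference that was tested and not called (log2 fold change 0.90, SE 0.58, adjusted p = 0.488, edgeR). Hoxb4 was not tested in the other 2 groups. Erythroid-marker cells had 4.69 to 5.88 CPM in KO and 0 to 2.37 CPM in WT. Lymphoid-marker cells had 0 to 2.30 CPM in KO and 2.93 to 3.51 CPM in WT, on 3 counts or fewer per library.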

How the results depend on the processing

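In bulk, 8 Hox calls were also found with RLE size factors, library size alone, DESeq2 and a replicate block. In these fits 43.9% to 48.7% of all genes were called. Without a filter there were 9 Hox calls, 37.5% of members against 24.9% of all genes. Leaving out 1 library gave 3 (without WT 2) to 10 (without WT 1), with 5 without KO 1 and 4 without KO 3, at the shares given above. Same-numbered bulk libraries correlated at 0.230, 0.0957 and 0.0442, and not every library correlated best with its own number. With 3 libraries per group these values cannot settle whether the numbers pair the libraries. In H3K4me3, where 2 pairs correlated at 0.302, the 3 calls became 0 with DESeq2, 13 with the replicate block (8 higher, 5 lower) and 0 among marked windows alone. With the block 20842 of 51039 windows were called. Left-out libraries changed the size of the 3 called values, as given above. There were 3 calls with RLE, 4 with library size alone, 2 without a filter and 4 over all distinct windows, where the first listed transcript start stood for a gene. The shares of all windows called in these fits are not given here, so the counts cannot be set against other windows. For single cells the replicate block gave 0 calls, as did INPUT and J2; without INPUT WT 1, J2 over INPUT in WT gave 1 call (range 0 to 1); the lone sample left was assumed to vary like the other groups.

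Signs of uncalled H3K4me3 values turned as follows, and the cause was not tested. With library size alone, Hoxa10 was -0.22 and Hoxa6 -0.080. Among marked windows alone, Hoxa10 was -0.27, Hoxa6 -0.14 and Hoxb5 -0.046. At the first listed start, Hoxc6 was -0.50 and Hoxa7 -0.028. Over left-out libraries Hoxa10 ranged from -0.36 to 0.56, Hoxa6 from -0.14 to 0.55 and Hoxa7 from -0.018 to 0.80. In single cells, Hoxa9 ranged from -0.50 to 0.091, Hoxa7 from -0.73 to 0.21, Hoxa10 from -0.63 to 0.17 and Hoxc8 from -0.50 to 0.82. Restricting single-cell tests to genes listed in every library, chosen after seeing the data, gave 0 Hox calls.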
